A study of Mus musculus with 2 samples.

Results

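The genes described here are the 10 antigen presentation genes *H2-K1*, *H2-D1*, *B2m*, *Tap1*, *Tap2*, *Tapbp*, *Cd1d1*, *Cd74*, *H2-Aa* and *H2-Ab1*, which were picked by symbol from the 21041 genes of the deposited RNA-seq table. They were chosen with the values of both libraries known, and *Cd74* in particular was included because its value is higher in *Cxxc1*-deficient cells, so their levels are a description and were not tested. The table compares 2 libraries of CD4+CD8+ double-positive (DP) thymocytes, 1 for WT and 1 for *Cxxc1*-deficient mice, and mice of a few weeks of age were used in the study. By the study's methods, WT mice are *Cxxc1* fl/fl without Cre, and the deficient mice are *Cxxc1* fl/fl h*CD2*-Cre. There a Cre driven by human *CD2* sequences removes part of *Cxxc1* early in thymocytes and also in other immune cells. The floxed allele was made in ES cells of strain 129 and backcrossed to C57BL/6. The title of the deficient library reads KO whereas its genotype label reads Cxxc1+/-, the label of a heterozygote, and the title was followed. How many mice gave each library is not given in the sources used here.

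An MHC class I molecule is a heavy chain, here encoded by *H2-K1* or *H2-D1*, held together with the small invariant subunit β2-microglobulin, encoded by *B2m*. Peptides reach it in the endoplasmic reticulum through the transporter TAP1/TAP2, and tapasin, encoded by *Tapbp*, holds the empty class I molecule at that transporter. CD1d, encoded by *Cd1d1*, also pairs with β2-microglobulin but presents lipids, and DP thymocytes are the cells that present CD1d to the precursors of NKT cells. Class II molecules, such as the one built from *H2-Aa* and *H2-Ab1*, pair instead with the invariant chain CD74 and belong to B cells, dendritic cells, macrophages and thymic epithelium. Mouse DP thymocytes carry little class I on their surface and, as a rule, no class II.

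Promoter sequences are shown because *B2m*, the abundant gene of the 10, shares regulatory letters with *H2-K1*, *H2-D1* and *H2-Aa*, which had low values. RefSeq promoter windows (build GRCm38.p6, 250 bases before the start) were at hand for 6 of the 10 genes, and not for *Tap2*, *Cd1d1*, *Cd74* and *H2-Ab1*. In *B2m*, *H2-K1* and *H2-D1* the letters TGACG, part of the X2 box, start exactly 25 bases before ATTGG, the Y box that reads CCAAT on the other strand, and in *H2-Aa* the distance is 26 bases. The stretches below run 5′ to 3′ towards the gene, with both boxes in capitals. They lie at chr2:122147589-122147658 on the plus strand (*B2m*), chr17:34000348-34000408 on the minus strand (*H2-K1*), chr17:35262973-35263042 on the plus strand (*H2-D1*) and chr17:34287847-34287917 on the minus strand (*H2-Aa*).
B2m: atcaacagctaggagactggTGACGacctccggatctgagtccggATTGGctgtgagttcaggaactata
H2-K1: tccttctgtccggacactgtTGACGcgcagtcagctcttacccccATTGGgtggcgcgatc
H2-D1: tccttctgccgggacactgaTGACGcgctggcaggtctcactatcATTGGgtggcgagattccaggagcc
H2-Aa: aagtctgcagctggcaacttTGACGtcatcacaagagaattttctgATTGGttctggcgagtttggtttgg

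The pair at a distance of 25 bases, searched on both strands, occurs in 30 of 32851 promoter windows (0.0913%), and at 25 or 26 bases in 50 (0.152%). Singly the letters are common, with TGACG on either strand in 17.8% of the windows and CCAAT in 33.8%. The pair was looked for after the sequences had been seen, and a match in letters is not shown to be a bound site. CXXC1 binds unmethylated CpG, and the number of CpG in the 250 bases was 8 for *B2m*, 9 for *H2-K1*, 14 for *H2-D1*, 14 for *Tap1*, 10 for *Tapbp* and 3 for *H2-Aa*, against a median of 6 over all windows. From 29.4% (*H2-D1* and *Tap1*) to 71.0% (*H2-Aa*) of all windows held at least as many. In DP thymocytes the study found binding enriched at CpG island centres, but only a small share of binding sites lay at islands.

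The deposited values are normalized expression values rounded to whole numbers. For short genes they fall on steps that scale with transcript length, as reads per length would, so levels of different genes can be set side by side and the reads behind each value can be approximated (1 read is a step of 4.05 in the WT library against 4.70 in the deficient library for a transcript of 1 kb). As a reference for a gene that is silent in thymocytes, the 1122 olfactory receptor genes of the table were listed at a median of 22 (WT) and 24 (deficient), with 95th percentiles of 53.95 and 57. DP identity was plain in both libraries. All 15 DP marker genes, *Rag1* and *Cd8a* among them, were above 0, and 15 in the WT library against 14 in the deficient library exceeded the olfactory 95th percentile. Of these markers, 12 were lower by 2-fold or more in the deficient library, and 14 have a mean value of at least 100. Of all genes, 54.9% with a mean from 100 to 500 and 84.1% with a mean of 500 or more were also lower by 2-fold, so the count does not set DP markers apart. The targeted gene *Cxxc1* was listed at 91 in the WT library against 50 in the deficient library. Its ratio was 0.549 (approximate 95% interval, 0.338 to 0.877), which became 1.096 when the libraries were given equal medians of genes whose mean reaches 100. By contrast, the study's qPCR found *Cxxc1* mRNA nearly absent from deficient DP thymocytes, and its western blot showed loss of the protein. The value used here is 1 per gene, whereas Cre removes only part of *Cxxc1*. The genotype label of the deficient library also reads Cxxc1+/-, the label of a heterozygote. These cannot be told apart here, and the difference from the qPCR was not tested. The intervals given here (Clopper-Pearson, from the approximate reads on the longest annotated coding transcript) cover counting error only and compare 2 libraries, not 2 genotypes. Each genotype has 1 library, so differences have no replicate check and p-values are not given. In bulk RNA, fewer cells of a type and less RNA per cell cannot be told apart.

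At a threshold of 2-fold, 1 of the 10 genes was lower in *Cxxc1*-deficient DP thymocytes (*Cd1d1*) and 1 was higher (*Cd74*). Over the 20125 genes above 0 in at least 1 library, 17.4% passed this threshold downwards and 5.89% upwards, so neither count sets the 10 genes apart. Smaller differences went both ways, with 5 genes lower and 5 higher, and the log2 ratios (*Cxxc1*-deficient over WT) had a median of -0.10, against -0.20 over all genes. The ratio depended strongly on level in these libraries. The median log2 ratio was 0 for genes with a mean value under 50, -0.53 from 50 to 100, -1.06 from 100 to 500 and -1.61 at 500 or more. In the same order, 9.75%, 20%, 54.9% and 84.1% of genes were lower by 2-fold or more, and 8.22%, 0.656%, 0.52% and 0% were higher. Of the 10 genes, 6 have a mean under 50, *Tap1* and *Tap2* lie between 50 and 100, *Cd1d1* lies between 100 and 500, and *B2m* stands above 500, and each is read against its own level below.

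**Figure D1:**
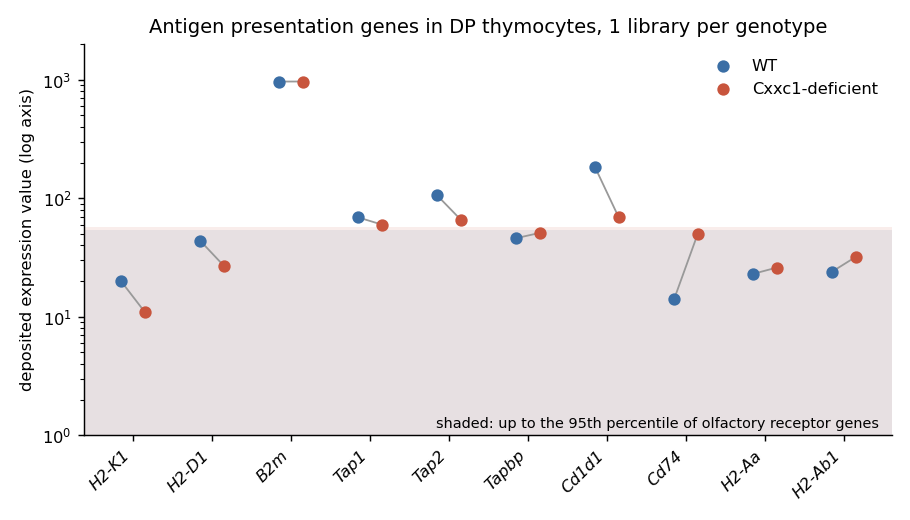
Deposited expression value (log axis) of the 10 genes in the WT library (blue) and the *Cxxc1*-deficient library (red), 1 point per library, with the range up to the 95th percentile of olfactory receptor genes shaded. *B2m* lies far above the other genes at 964 and 965, and 6 of the 10 genes lie inside the shaded range in both libraries.

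*B2m*, on chromosome 2 of mm9 from 121973422 to 121978819, was the only abundant gene of the 10. Its value was 964 in the WT library against 965 in the deficient library, from approximately 204 and 176 reads, giving a ratio of 1.00 (interval, 0.813 to 1.23). The 2 values thus differed by less than counting error. Among genes as abundant as *B2m* this was rare. Of the 164 genes whose mean reached 500, 158 (96.3%) were lower in *Cxxc1*-deficient cells, 84.1% were lower by 2-fold or more and the median fold reduction was 3.05. The other 5 that were not lower were *Trp53i11*, *Lgals9*, *Sfi1*, *Ucp2* and *Srrm2*, with ratios from 1.16 to 1.34. *B2m* moved from rank 100 in WT to rank 12 in *Cxxc1*-deficient cells. As *B2m* was picked with these values known, its place among abundant genes is a description.

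**Figure D2:**
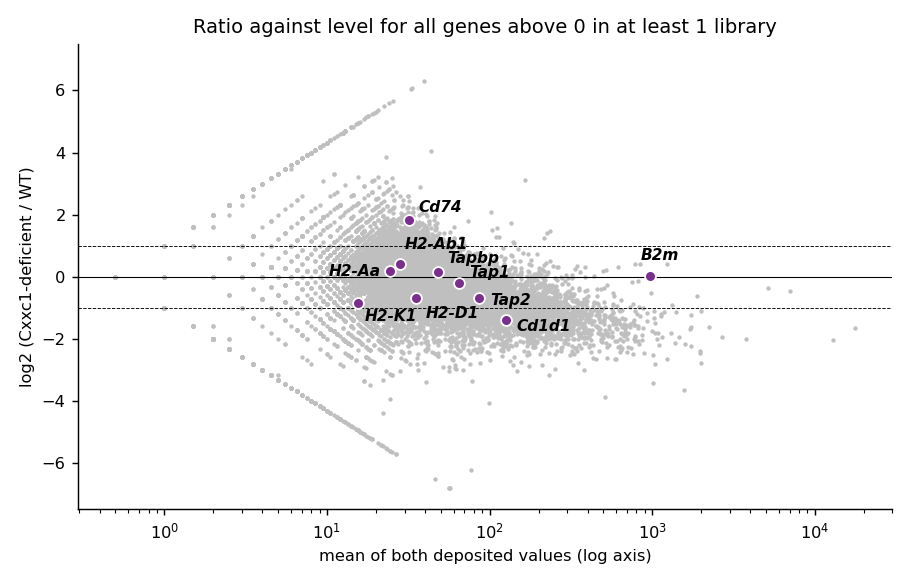
Log2 ratio of *Cxxc1*-deficient to WT (vertical) against the mean of both values (log axis) for the 20125 genes above 0 in at least 1 library, with dashed lines at 2-fold and the 10 genes in purple. *B2m* sits at a log2 ratio of 0.0015 above nearly all genes of its level, whereas *Cd1d1*, *Tap1* and *Tap2* lie within the cloud of theirs.

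Both heavy chains lay below the 95th percentile of olfactory receptor genes in both libraries. *H2-K1*, read from the minus strand on chromosome 17 from 34132962 to 34137278, had a value of 20 in the WT library against 11 in the deficient library, from approximately 8 and 4 reads. Its ratio of 0.550 had an interval from 0.128 to 2.17, so a difference was not detectable at this depth. The value exceeded that of 43.6% of olfactory receptor genes in the WT library and 26.2% in the deficient library. *H2-D1*, on the plus strand of chromosome 17 from 35399675 to 35404444, had 44 in the WT library against 27 in the deficient library, from approximately 23 and 12 reads. Its ratio was 0.614, with an interval from 0.274 to 1.27 that also holds 1, and its value exceeded that of 87.8% of olfactory receptor genes in WT and 56.2% in the other library. Both heavy chains were therefore listed at values 20-fold or more below that of their common partner *B2m*, with WT ratios of *B2m* to heavy chain of 48.2 for *H2-K1* and 21.9 for *H2-D1*.

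The study kept only reads of 50 bases that map to 1 place, and class I heavy chains have many near copies. Of the 1239 windows of 50 bases that lie inside 1 exon of *H2-K1*, 91.8% had no other exact copy in the genome and 58.3% had none within 2 mismatches. For *H2-D1* the shares were 83.4% and 52.1%. The *H2-K1* window with the most exact copies is shown as an example of the 101 windows of this gene from which no uniquely mapped read can come. It lies in exon 4 at chr17:34134391-34134440 of mm9 (read on the minus strand) and occurs 16 times in the genome, also within the genes *H2-D1*, *H2-K2*, *H2-Q10*, *H2-T22* and *H2-T23*.
H2-K1: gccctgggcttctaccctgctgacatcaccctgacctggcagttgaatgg

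By contrast, all 684 such windows of *B2m* had no second copy, even within 2 mismatches. *Gapdh*, which has many processed copies, kept 15.98% of its windows and was listed at 6 and 10. Over all 19089 genes with such windows the median share without another exact copy was 100%, and 20.8% of genes had a share under 95%. The part of unique mapping in the low values of *H2-K1* and *H2-D1* was not tested.

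**Figure D3:**
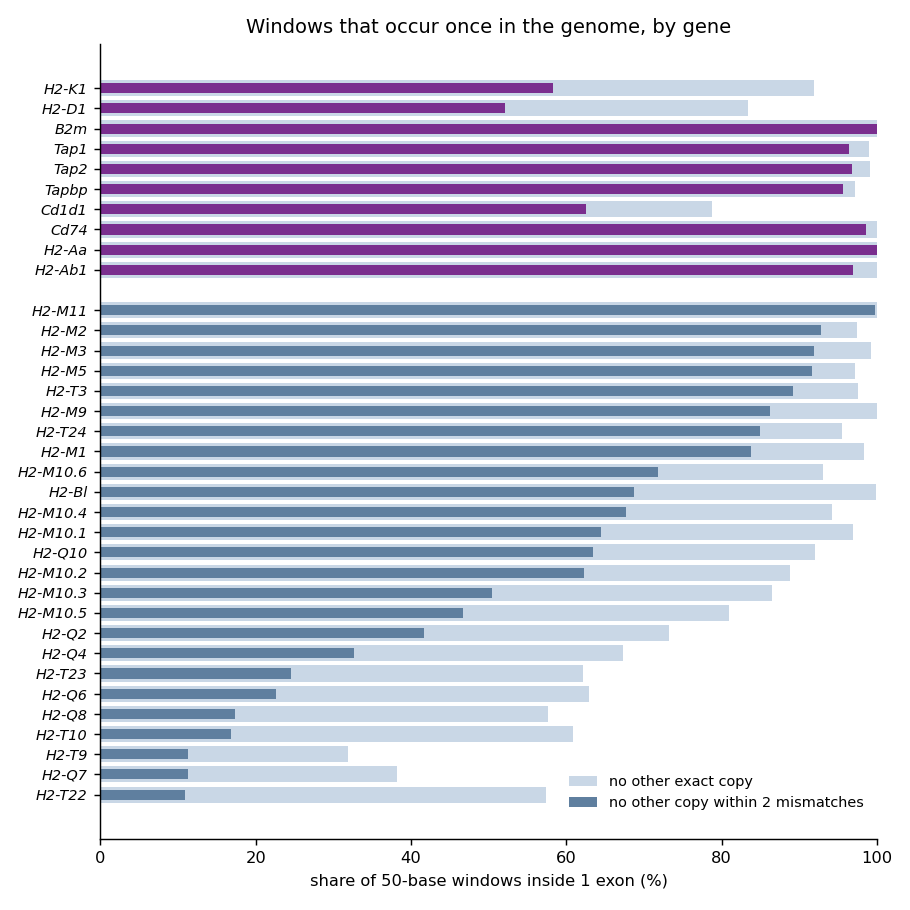
Share of 50-base windows inside 1 exon that occur once in the mm9 genome, for the 10 genes (top) and 25 other class I heavy chain genes (bottom), without another exact copy (pale) and without another copy within 2 mismatches (dark). *B2m* and *H2-Aa* reach 100% by both measures, *H2-K1*, *H2-D1* and *Cd1d1* keep 58.3%, 52.1% and 62.5% within 2 mismatches, and 10 of the 25 other genes keep under 50%.

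Both subunits of the peptide transporter lay above the olfactory 95th percentile. *Tap1*, on chromosome 17 from 34324498 to 34334170, had a value of 69 in the WT library against 60 in the deficient library, giving a ratio of 0.870 (interval, 0.563 to 1.37). *Tap2*, from 34340472 to 34353266 on the same strand, had 106 in the WT library against 66 in the deficient library, giving a ratio of 0.623 (interval, 0.427 to 0.888). The 2 subunits of the transporter thus differed in their point values, but their intervals overlap widely. With the shortest coding transcript *Tap2* rests on approximately 10 and 5 reads, and its interval, 0.156 to 1.86, then includes 1. The fold reduction of 1.61 for *Tap2* is close to the median of 1.45 for the 3657 genes with a mean from 50 to 100, of which 20% were lower by 2-fold or more. *Tap1* shares 212 exonic bases with *Psmb9* on the opposite strand, and *Tap2* shares exonic bases with 2 gene models on the opposite strand, and without knowledge of the strand such reads cannot be told apart. Tapasin (*Tapbp*), from 34052844 to 34066235, had 46 in the WT library against 51 in the deficient library, giving a ratio of 1.11 (interval, 0.646 to 1.84). It exceeded 89.1% of olfactory receptor genes in WT, so its level is at the upper edge of the silent range. The 6 class I genes had a median log2 ratio of -0.44, and 0 of the 6 reached 2-fold in either direction.

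*Cd1d1*, read from the minus strand on chromosome 3 from 86799756 to 86803363, had the largest reduction of the 10 genes as deposited. With the olfactory median subtracted from all values, *H2-D1* had a log2 ratio of -2.87 and *Cd1d1* one of -1.84. The deficient value of *H2-D1* is 27, from approximately 12 reads, close to the olfactory median of 24 there, so its ratio rests on a small remainder. The value of *Cd1d1* was 183 in the WT library against 69 in the deficient library, from approximately 88 and 29 reads. The value was 2.65-fold lower (interval, 1.70 to 4.13), and both values exceed at least 99.1% of olfactory receptor genes. Of the 2308 genes with a mean from 100 to 500, 54.9% were lower by 2-fold or more and the median fold reduction was 2.09, which lies inside the interval of *Cd1d1*. As deposited, *Cd1d1* thus differed between the libraries by more than counting error, and the median of its level lies within that error. Its partner *B2m* did not share the reduction, and the intervals of the 2 ratios do not overlap.

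*Cd1d1* has 1 close relative, *Cd1d2*, on the same chromosome. The 2 genes share 336 windows of 50 bases exactly, 78.8% of the *Cd1d1* windows had no other exact copy and 62.5% had none within 2 mismatches. A coding stretch of both is shown as an example of where a read of this length tells them apart, with the differing letters in capitals, at chr3:86801463-86801512 on the minus strand for *Cd1d1* and at chr3:86792226-86792275 on the plus strand for *Cd1d2* (mm9). Counted from 1 at the 5′ end, the substitutions from *Cd1d1* to *Cd1d2* are A25C and G26T.
Cd1d1: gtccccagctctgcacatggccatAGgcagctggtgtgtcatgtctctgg
Cd1d2: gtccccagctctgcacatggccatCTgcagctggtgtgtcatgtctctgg

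*Cd1d2* itself had a value of 36 in the WT library against 17 in the deficient library, inside the range of olfactory receptor genes in both, with a ratio of 0.472 (interval, 0.0980 to 1.42). Reads from windows that the 2 genes share are not uniquely mapped, so both levels are uncertain.

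The class II genes were at the level of silent genes. *H2-Aa*, read from the minus strand on chromosome 17 from 34406276 to 34424772, had 23 in the WT library against 26 in the deficient library, from approximately 6 reads in each. *H2-Ab1*, from 34400154 to 34406363, had 24 in the WT library against 32 in the deficient library, from approximately 7 and 8 reads. Both genes lie near the median of olfactory receptor genes, and their ratios of 1.13 and 1.33 have intervals of 0.310 to 4.34 and 0.420 to 4.30. *Cd74*, on chromosome 18, had 14 in the WT library against 50 in the deficient library, giving a ratio of 3.57 (interval, 1.202 to 12.2). This interval excludes 1 narrowly and rests on approximately 5 and 15 reads. The value of 14 in WT exceeded that of 33.2% of olfactory receptor genes, and the value of 50 in *Cxxc1*-deficient cells exceeded that of 88.0%, below their 95th percentile of 57. Among silent genes, 20.1% of the 1081 olfactory receptor genes above 0 were higher by 2-fold or more in the deficient library and 14.6% lower. In *Cd74*, *H2-Aa* and *H2-Ab1*, all windows inside 1 exon had no other exact copy.

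**Figure D4:**
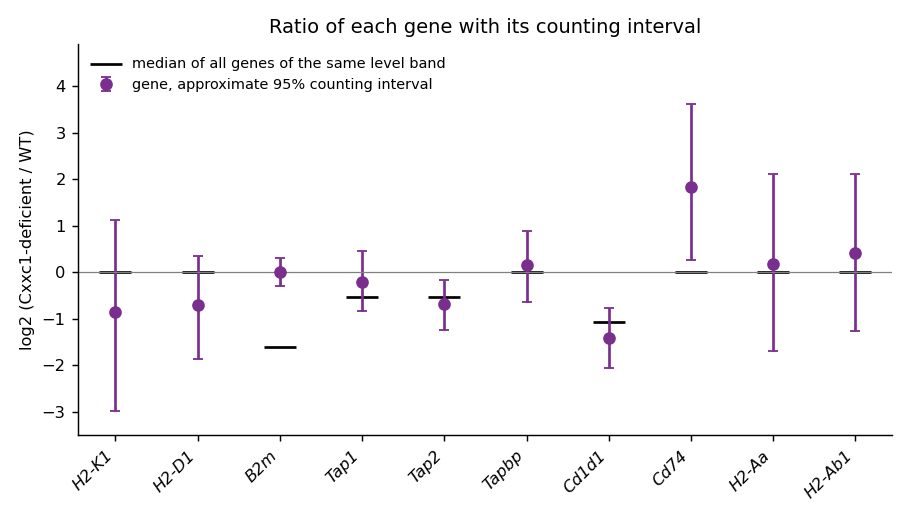
Log2 ratio of *Cxxc1*-deficient to WT for the 10 genes (purple points) with approximate 95% counting intervals (bars), and the median of all genes of the same band of mean value (black lines). The interval of *B2m* lies wholly above the median of its band of -1.61, those of *Cd1d1* and *Tap2* include their bands' medians and lie below 0 (for *Tap2*, only with the longest transcript), and that of *Cd74* lies above 0.

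The cells that normally express class II were looked for through their own markers, beside the higher *Cd74*. The 12 B cell markers summed to 405 in the WT library against 337 in the deficient library, ranging from 18 to 74 and from 4 to 47, with 9 lower and 3 higher. Only *Cd79b*, with 74 and 43, exceeded the olfactory 95th percentile, and only in the WT library. Inside the olfactory range, *Cd79a*, part of the B cell receptor, was 18 and 4, and the transcription factor *Ebf1* was 34 and 47. The 18 macrophage and dendritic cell markers summed to 558 in the WT library against 580 in the deficient library, with 12 of them higher, 6 lower and a median log2 ratio of 0.24. At 2-fold, 3 of the 18 were lower, namely *C1qc* with 50 and 22, *C1qa* with 34 and 17 and *Lyz2* with 19 and 4. Only *Batf3*, with 17 and 40, was higher by 2-fold, and *Aif1* had 14 and 27. Over all genes above 0 in at least 1 library these shares were 17.4% and 5.89%. Of the 18, only *Itgam*, with 101 and 107, exceeded the olfactory 95th percentile in either library. The 11 markers of thymic epithelium summed to 347 in the WT library against 333 in the deficient library. None of these sums was as much as 1.5-fold higher as deposited. Nearly all of these markers lie inside the olfactory range, so the sums say little about a small number of such cells. With equal medians of genes whose mean reaches 100 the ratios of the sums became 1.66 for B cells, 2.07 for macrophages and dendritic cells and 1.91 for thymic epithelium, and the log2 ratio of *Cd74* became 2.83. The part of other cell types in the *Cd74* value was not tested. No marker of B cells, and 0 of 18 of macrophages and dendritic cells, was listed at 0 in either library, and *Krt8* was the 1 epithelial marker at 0, in *Cxxc1*-deficient cells.

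Of 13 further class II pathway genes above 0, 10 were lower and 3 higher, and 3 passed 2-fold downwards and 0 upwards, whereas under the scaling just named 3 were lower, 1 of them by 2-fold, and 10 higher, 3 of them by 2-fold. Over all genes above 0 in at least 1 library, 17.4% passed 2-fold downwards and 5.89% upwards as deposited. The 3 genes that passed 2-fold downwards as deposited were *H2-DMb1*, with 22 in the WT library against 7 in the deficient library, *Ifi30*, with 33 and 10, and *Ctsl*. *H2-DMa*, which with *H2-DMb1* encodes the peptide exchange factor that works after CD74 is cleaved, had 22 and 37. The interval of its ratio, 0.654 to 4.91, includes 1. *Ciita*, the master activator of class II and *Cd74*, had 27 and 41, with a ratio of 1.52 and an interval from 0.961 to 2.44. The proteases of CD74 differed in level. *Ctss* (cathepsin S) had 24 and 38, inside the olfactory range. *Ctsl* (cathepsin L) had 533 in the WT library against 93 in the deficient library, giving a fold reduction of 5.73. *Sppl2a*, which removes the last membrane stub of CD74, had 161 and 109.

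As deposited, most genes that prepare and load class I peptides were lower, as were most genes of their level. Of the 8 genes for peptide loading and trimming, all 8 were lower and 6 at least 2-fold, with a median fold reduction of 2.05. Of the 8, 5 have a mean of at least 100, and the rest, *Tapbpl*, *Calr* and *Uggt1*, lie between 50 and 100. Of all genes with a mean from 100 to 500, 54.9% passed 2-fold downwards, and from 50 to 100 the share was 20%. With equal medians of genes whose mean reaches 100, 6 of the 8 were lower, 2 were higher and 0 passed 2-fold. The chaperone calnexin (*Canx*) had 413 in the WT library against 145 in the deficient library. *Pdia3* (ERp57), a partner of tapasin, had 284 and 80, the largest reduction of this list at 3.55-fold. *Ganab* had 180 and 90, and *Sec61a1* had 148 and 68. The trimming peptidase *Erap1* had 121 and 93, a ratio of 0.769 (interval, 0.584 to 1.006). *Tapbpl*, a relative of tapasin, had 86 and 59.

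Of 9 proteasome genes above 0, all 9 were lower and 4 at least 2-fold, and under that scaling 4 were lower, 2 of them by 2-fold, and 5 higher. Over all genes above 0 in at least 1 library, 17.4% passed 2-fold downwards as deposited. The share was 54.9% for a mean from 100 to 500, where 3 proteasome genes lie, and 20% from 50 to 100. The genes called as deposited were *Psmb8*, *Psmb6* with 114 and 23, *Psmb7* with 105 and 39, and *Psme2* with 10 and 0 from approximately 2 and 0 reads. *Psmb8*, the immunoproteasome subunit encoded beside *Tap1*, had 348 in the WT library against 138 in the deficient library, 2.52-fold lower (interval, 1.799 to 3.57). The activator subunit *Psme1* had 315 and 183, and *Psme3*, which belongs to a nuclear activator, had 277 and 171. Of the genes for CD1d loading and NKT cell selection, 9 of 12 were lower and 7 at least 2-fold, with a median fold reduction of 2.06. Of the 12, 6 have a mean of at least 100. As deposited, 54.9% of all genes with a mean from 100 to 500 passed 2-fold downwards, and 20% from 50 to 100. Under that scaling 7 of the 12 were lower and 5 higher, and 0 passed 2-fold downwards and 3 upwards. The saposin precursor *Psap*, which loads lipids onto CD1d, had 267 and 77, and *Ap3b1*, a subunit of the adaptor that sorts CD1d to lysosomes, had 265 and 105. Among the signals that DP thymocytes give NKT precursors, *Slamf1* had 407 and 145, whereas *Slamf6* had 229 and 200, a ratio of 0.873 (interval, 0.671 to 1.14). Its adaptor *Sh2d1a* (SAP) had 535 and 241, and the kinase *Fyn* had 144 and 72.

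Of 14 transcription factors of MHC genes, 10 were lower and 2 at least 2-fold, with a median log2 ratio of -0.37, and under that scaling 2 were lower and 12 higher, 4 of them by 2-fold. Over all genes above 0 in at least 1 library, 17.4% passed 2-fold downwards as deposited. *Nlrc5*, the activator of class I genes and *B2m*, had 27 in the WT library against 21 in the deficient library, inside the olfactory range. Factors of the X2 and Y boxes differed in level. *Creb1* had 359 and 120, *Nfya* had 220 and 137, and *Nfyb* had 188 and 70, whereas *Nfyc*, the other subunit of NF-Y, had 11 and 8. *Irf2* differed by less than counting error, with 189 in the WT library against 199 in the deficient library and an interval of its ratio from 0.799 to 1.38.

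The directions of several of the 10 genes depended on how the libraries were scaled. *Cd1d1* was lower and *Cd74* higher under every scaling tried, with log2 ratios from -1.41 to -0.41 and from 1.84 to 2.83. *Tapbp*, *H2-Aa* and *H2-Ab1* had higher point values under every scaling, and *B2m* was equal or higher. As deposited, the intervals of these genes include 1, and each rescaling raised the deficient values, so their ratios could only rise. *H2-K1*, *H2-D1*, *Tap1* and *Tap2*, lower as deposited, turned higher when the libraries were given equal medians of genes whose mean reaches 100, which multiplies the *Cxxc1*-deficient values by 1.995 and gives *B2m* a log2 ratio of 1.00. That factor is larger than 1.70, the lower end of the fold interval of *Cd1d1*, so under this scaling *Cd1d1* differed by less than counting error. *Tap1* also turned higher under 2 further scalings.

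**Figure D5:**
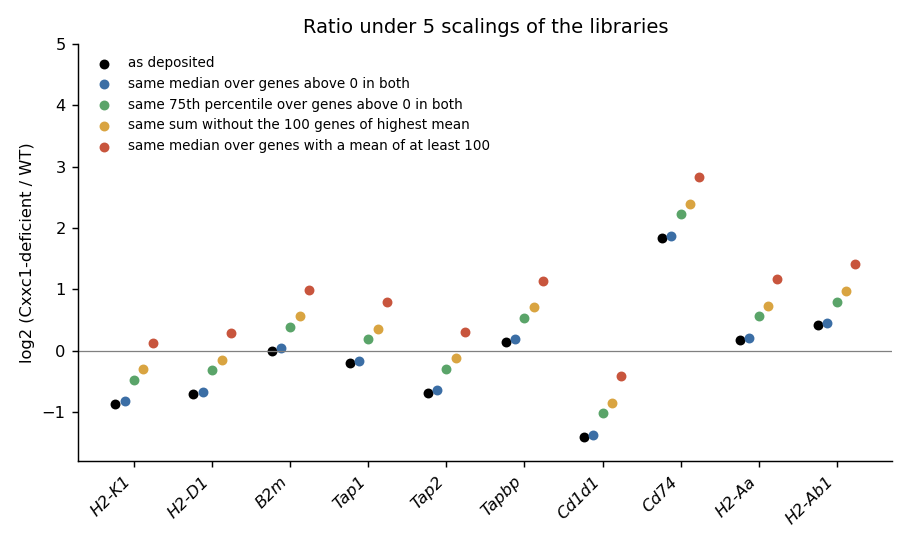
Log2 ratio of *Cxxc1*-deficient to WT for the 10 genes as deposited (black) and under 4 scalings of the libraries (colours), 1 point per scaling. All points of a gene shift by the same amounts, *Cd1d1* stays below 0 and *Cd74* above 1.8, and *H2-K1*, *H2-D1*, *Tap1* and *Tap2* cross 0.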

How the data were processed

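RNA-seq was analysed for 1 WT and 1 *Cxxc1*-deficient library of DP thymocytes, grouped by title. Reads of 50 bases were mapped to mm9 and uniquely mapped ones were kept, and the submitters' processing notes name CASAVA 1.8.2, Bowtie 1.0.1 and Partek software. The deposited unit is a score, which the authors normalized for each gene and rounded. How it was normalized and which gene annotation was used is not given in the sources used here. The scores total 1551994 (WT) and 981677 (deficient).

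Ratios were taken between scores raised to at least 1, with 2-fold as threshold. Reads were approximated from the steps in the scores of genes under 1.2 kb, with lengths from GENCODE vM1 (NCBIM37, the build of mm9, 19090 genes matched by symbol), which correspond to 0.247 reads per unit and kb in WT and 0.213 in deficient cells. Of the genes where this could be checked, 66.5% and 75.9% gave whole reads within rounding plus 0.02 reads, against 18.2% and 19.7% for evenly spread values. In all, approximately 1373642 and 709781 reads lay on genes. With the shortest annotated transcript a gene has fewer reads, for *Tap2* 10 and 5 in place of 90 and 48.

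Windows of 50 bases were counted in the genome exactly and within 2 mismatches (over all genes, exactly and at every 5th position). The members and lists were chosen with earlier results of these data known. All members are named, with pathway genes whose mean reaches 100, or else up to 4 of the largest fold whose mean reaches 50. Other named genes were chosen after their values were seen. Some genes that this rule names are not reported here. Alternatives were other scalings, subtraction of a background, pseudocounts, filters and thresholds. Calculations were tested on simulated data, in Python 3.11.15 with numpy 2.4.6, numba 0.67.0, pandas 2.3.3, scipy 1.17.1 and matplotlib 3.10.9.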

Additional observations from a re-analysis of the deposited data

How the results depend on the processing

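Several choices moved the counts. Equal 75th percentiles, equal sums once the 100 most abundant genes were set aside, and equal medians of genes whose mean reaches 100 shifted the all-gene median of the log2 ratios by 0.39, 0.56 and 1.00. In that order, the genes lower and higher by 2-fold or more were 1783 and 2417, 1317 and 3468, and 706 and 7492, in place of 3502 and 1186, which takes the share of lower genes among those called from 74.7% to 42.5%, 27.5% and 8.61%. The median log2 ratio of the 6 class I genes was -0.056, 0.12 and 0.55, in place of -0.44. Of the 10 genes, 0 were lower by 2-fold under the last 2 scalings and 4 were higher under the last. With the olfactory receptor median subtracted, 3 of the 10 were lower and 3 higher, the log2 ratio of *H2-D1* was -2.87, the class I median was -0.19 and all genes gave 7527 and 3038. A pseudocount of 10 gave 2312 and 465 over all genes. A mean of at least 50 left 4 of the 10 genes, 0 of them 2-fold higher, a class I median of -0.20, and 2138 and 36 over all genes. At 1.5-fold, 4 of the 10 were lower and all genes gave 6415 and 2592, and at 3-fold these were 0, 1267 and 508. Equal medians of genes above 0 in both libraries, a pseudocount of 1 and a mean of at least 10 left the counts of the 10 genes as they were. Depth limits the heavy chains and class II genes, which rest on 23 reads or fewer a library. The shortest coding transcript as length, an alternative chosen after seeing the data, widened the interval of *Tap2* to 0.156 to 1.86. No paired analysis was possible because there is 1 library per genotype.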

Other observations

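The other class I heavy chains of the H2 region, which include the nonclassical genes of the Q, T and M groups, went both ways as deposited. Of the 27 above 0 in at least 1 library, 12 were lower in *Cxxc1*-deficient DP thymocytes, 12 were higher and 3 were equal, and the median log2 ratio was 0, whereas 5 were lower and 22 higher with equal medians of genes whose mean reaches 100. Only *H2-T24* lay above the olfactory 95th percentile in either library. Its value was 74 in the WT library against 106 in the deficient library, giving a ratio of 1.43 (interval, 0.917 to 2.21), so the difference is within counting error. *H2-T23*, which encodes Qa-1, was 46 and 11, and 24.6% of its windows had no other copy within 2 mismatches, so its value is uncertain.

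Class I genes and *B2m* are known targets of interferon, and 6 of 20 interferon-stimulated genes in WT and 4 in the other library exceeded the olfactory 95th percentile. Of the 20 genes, 11 were lower and 9 higher, 2 passed 2-fold downwards and 1 upwards, with a median log2 ratio of -0.10. Over all genes above 0 in at least 1 library, 17.4% passed 2-fold downwards and 5.89% upwards. With equal medians of genes whose mean reaches 100, 2 of the 20 were lower and 18 higher. The GTPase *Igtp* had the highest value, with 275 in the WT library against 77 in the deficient library. *Irf9* was higher, with 72 and 111, a ratio of 1.54 (interval, 1.06 to 2.23), and *Irf1* had 55 and 95, a ratio of 1.73 (interval, 1.05 to 2.86.) Of the 3657 genes with a mean from 50 to 100, 82.6% were lower. *Ifit2* had 100 and 55, and *Stat2* had 127 and 72. Both *Irf1* and *Irf9* were noticed after their values were seen.

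*H2-L* and *H2-Q9* were listed at 0 in both libraries, as was the class II gene *H2-DMb2*. The markers of mature single-positive T cells, in which class I is higher than in DP cells, summed to 690 in the WT library against 611 in the deficient library. The 10 erythroid markers summed to 196 and 210, with 4 lower, 2 higher and a median log2 ratio of -0.13 over the 7 above 0, and *Klf1* had 29 and 64.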
